A study of Homo sapiens with 6 samples.

Results

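The transcripts described here are those of the subunits of AP-1, a family of transcription factors that bind DNA as pairs, in HaCaT cells. The rule took every row of the deposited count table whose symbol was one of 10 subunit genes of the JUN, FOS and ATF groups. Of these, 9 were matched, out of 15379 symbols in all: JUN, JUNB, JUND, FOS, FOSB, FOSL1, FOSL2, ATF2 and ATF3. BATF3 was not analysed here. HaCaT is an immortalised line of human keratinocytes, the main cells of the epidermis, so all libraries share the genotype of 1 cell line. The study compared 3 libraries of cells kept at 37C with 3 libraries of cells heated to 41C, in both cases for 1 h per day on 3 days. The series title concerns heat and the signals that keratinocytes send to pigment cells. The time from the final heating to RNA extraction is not in the labels. Nor do they state that replicates were separate cultures, and the p-values here thus reflect the spread among 6 libraries, part of which may be technical.

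AP-1 works through a basic region that touches DNA and a leucine zipper that joins a pair of subunits. JUN proteins can pair with each other or with FOS or ATF proteins, whereas FOS proteins need a JUN partner. Pairs of JUN and FOS favour the letters TGACTCA, known as the TPA response element, and pairs with ATF2 favour TGACGTCA, the cyclic AMP response element. Several subunit genes are immediate-early genes, switched on within minutes of growth factors, ultraviolet light or other stress and then switched off. In epidermis AP-1 is known for controlling both proliferation and the genes of the cornified layer.

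Of the 9 subunits, JUN alone had an adjusted p under 0.05 over the 12056 genes tested (edgeR, quasi-likelihood test), and it was higher at 41C. The count was 1 higher and 0 lower of 9, beside 0.821% of all tested genes called higher and 1.09% called in either direction. FOSB had the largest fold of the 9, 1.39 times its level at 37C, without passing. JUNB, JUND, FOS, ATF2 and ATF3 had log2 changes between -0.05 and 0.03. The median log2 change was 0.03 over the 9 subunits and 0.0023 over all tested genes. In 3 of the 9, JUN, FOSB and FOSL2, every library at 41C lay above every library at 37C, and this held for 11.2% of all tested genes. The reverse order held for 0 of the 9 and for 8.84% of all tested genes, so that groups apart in either direction made up 3 of 9 subunits and 20% of all tested genes. With 3 libraries against 3, an exact two-sided permutation test of 1 gene cannot go below p = 0.1; edgeR borrows information on the spread from the other genes. All 9 subunits passed the filter on low counts.

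**Figure D1:**
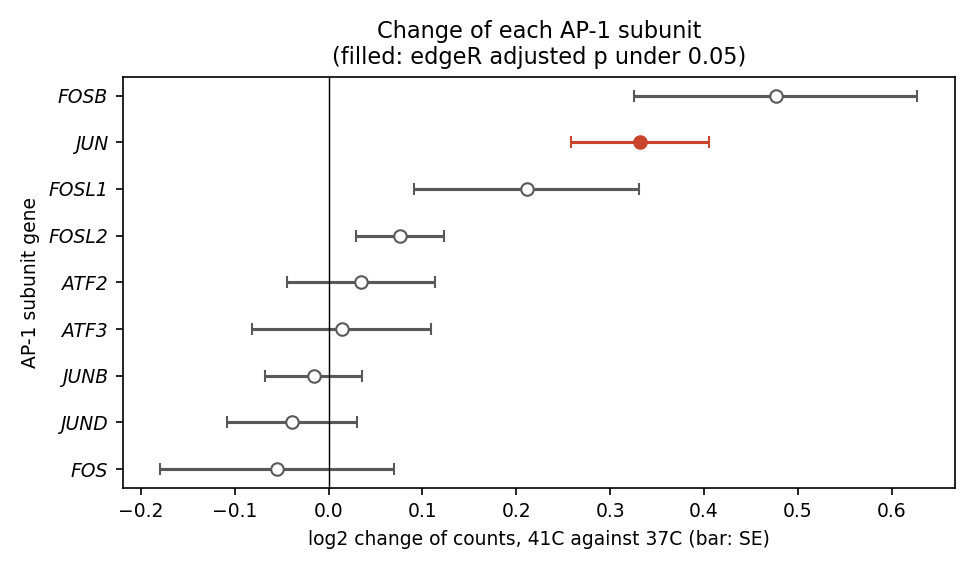
Log2 change of the counts of each AP-1 subunit at 41C against 37C (horizontal axis), with the standard error as a bar; the filled point is the gene with an edgeR adjusted p under 0.05. JUN at 0.33 is the filled point, FOSB lies further out at 0.48 with a standard error of 0.15, and the lower 5 points lie near 0.

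Promoter sequences are shown first for 4 subunits whose genes carry letters that AP-1 or related factors can bind, to set JUN beside ATF3 and FOSB beside FOS. RefSeq windows on GRCh38.p14, from 250 bases before to 50 bases after the start of the gene, were matched for 7 of the 9 subunits. Capitals mark TGACATCA, a variant of both response elements long known from the JUN promoter, or TGACG, the first letters of the cyclic AMP response element. Only bases before the starts given by both RefSeq and GENCODE 29 are printed, except for JUN, where 30 bases are given round the variant site. The GENCODE 29 start of JUN lies at -280 from the RefSeq start. The whole JUN window, with the stretch printed, thus falls inside the JUN exon of GENCODE 29. The JUN stretch is chr1:58784096-58784125 on the minus strand, the ATF3 stretch chr1:212565157-212565333 on the plus strand, the FOSB stretch chr19:45467746-45467994 on the plus strand and the FOS stretch chr14:75278578-75278773 on the plus strand.
JUN: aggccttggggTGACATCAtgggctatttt
ATF3: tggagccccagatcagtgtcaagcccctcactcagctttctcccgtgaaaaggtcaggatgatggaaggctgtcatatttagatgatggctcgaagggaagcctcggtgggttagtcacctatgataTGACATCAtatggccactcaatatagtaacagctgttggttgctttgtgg
FOSB: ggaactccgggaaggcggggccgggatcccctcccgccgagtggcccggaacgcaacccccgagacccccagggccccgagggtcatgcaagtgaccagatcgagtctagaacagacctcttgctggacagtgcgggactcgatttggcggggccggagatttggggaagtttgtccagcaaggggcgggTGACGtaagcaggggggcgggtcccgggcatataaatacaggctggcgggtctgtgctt
FOS: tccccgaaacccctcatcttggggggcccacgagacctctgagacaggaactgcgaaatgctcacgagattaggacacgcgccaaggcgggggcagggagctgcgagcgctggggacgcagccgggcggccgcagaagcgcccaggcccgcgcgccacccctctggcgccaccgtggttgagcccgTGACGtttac

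Positions are counted from the RefSeq start, with bases before it negative. The variant site stood at -67 to -60 in JUN and at -123 to -116 in 1 of the 2 windows of ATF3. On either strand, TGACATCA was found in 2.61% of the 35116 promoter windows of the same length. TGACG stood at -64 to -60 in FOS and at -60 to -56 in FOSB, and 24.6% of all windows held it on either strand. Every TGACGTCA also counts as a match of TGACG. JUND held the whole TGACGTCA, which 1.85% of windows hold, and a separate TGACG at -86 to -82, and FOSL2 held TGACTCA, which 4.95% hold. The heat shock element, searched on both strands as GAA, TTC and GAA with NN between them, was found in no window of the 7 subunits and in 0.49% of all windows. Its shorter core, GAA and TTC with NN between them, was found in JUN alone of the 7, at -150 to -143, and in 6.77% of all windows. The CArG box, by which serum response factor binds DNA, was not found in these windows either, and 1.29% of all windows held it. Bases further upstream than these windows were not searched. The search therefore cannot show whether FOS or another subunit gene has a CArG box or heat shock element there. The letters named above are a description of the windows and not sites shown to be used. JUN and ATF3 share the variant site, and their log2 changes were 0.33 and 0.01; TGACG was in all matched subunits but ATF3. It lay at a similar distance in FOSB, FOS and FOSL2 (-66 to -62 in the last), whose log2 changes were 0.48, -0.05 and 0.08.

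The order of the levels is given per length, in FPKM, since subunit genes differ in length from 1702 bases for FOSL1 to 8787 for FOSL2. At 37C the order was JUNB at 89.9 ± 4.39 FPKM (SD, n = 3), JUND at 42.6 ± 3.86, FOSL1 at 26.6 ± 4.52, FOSL2 at 15.2 ± 0.128, JUN at 12.3 ± 1.27, ATF2 at 10.3 ± 1.24, ATF3 at 5.53 ± 0.252, FOS at 4.11 ± 0.263 and FOSB at 1.13 ± 0.0608. The same order was found at 41C. At 37C the libraries of JUN and ATF2 overlapped, from 10.9 to 13.1 FPKM and from 8.87 to 11.3 FPKM, and no other neighbours in the order did. At 41C no neighbours overlapped, and JUN, at 15.2 to 15.4 FPKM, lay just under FOSL2, at 15.5 to 16.1. JUNB and JUND thus held most JUN-group RNA per length in these cells, and FOSL1 and FOSL2 most FOS-group RNA, while FOS and FOSB were lowest.

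**Figure D2:**
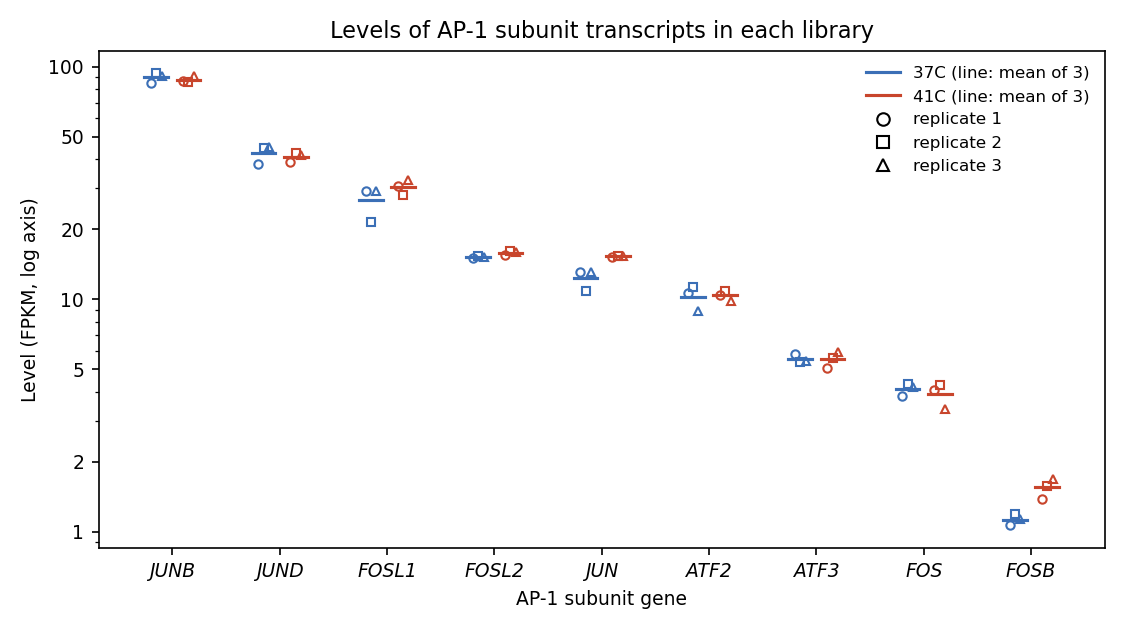
Level of each AP-1 subunit in FPKM (vertical log axis) in each library, blue at 37C and red at 41C; symbols give the replicate and lines the mean of 3 libraries. Levels run from JUNB near 90 FPKM to FOSB near 1 FPKM, and the red points of JUN lie together above the blue ones.

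JUN, the founding subunit, is a single-exon gene on chromosome 1 (GENCODE 29, GRCh38, bases 58780788 to 58784327, minus strand). JUN had 41.97, 35.2 and 42.5 CPM in 37C replicates 1, 2 and 3, and 49.4, 50.3 and 50.8 CPM in 41C replicates 1, 2 and 3; CPM are counts relative to library size, scaled between libraries. All libraries at 41C were above all at 37C, those at 41C lay close together, and 37C replicate 2 was the lowest. JUN rose 1.26-fold, its mean going from 39.9 ± 4.09 CPM (SD, n = 3) to 50.2 ± 0.702 CPM (SD, n = 3; log2 change 0.33 ± 0.07 SE; edgeR adjusted p = 0.0401). Its raw counts were 836, 695 and 839 at 37C and 1030, 1037 and 1009 at 41C. The call ended when 37C replicate 2 was left out (log2 change 0.25, edgeR adjusted p = 0.300) or any of 41C replicates 1, 2 and 3 (adjusted p = 0.157, 0.230 and 0.149), and with limma on log2(FPKM + 1) or log2(FPKM + 0.1) (adjusted p = 0.133 and 0.120). The log2 change lay between 0.25 and 0.38 in all 18 alternatives, and JUN passed in 11 of the 17 that gave it an adjusted p.

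**Figure D3:**
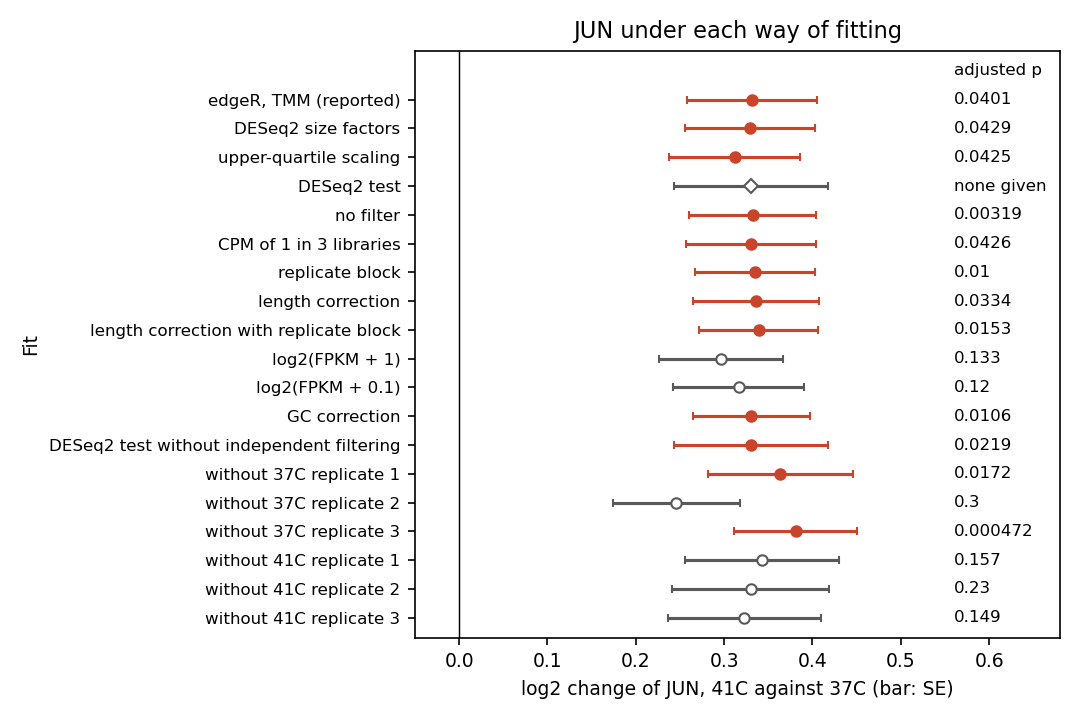
Log2 change of JUN at 41C against 37C (horizontal axis, bar: standard error) in the reported fit and in each alternative, with the adjusted p at the right; filled points are under 0.05 and the diamond marks DESeq2 with its own filter, which gave no adjusted p. All points lie between 0.25 and 0.38, and 6 of the alternatives with an adjusted p are open circles.

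JUNB, a relative that can dampen JUN-driven transcription, was the most abundant subunit per length. Its libraries had 153.6, 170.3 and 166.6 CPM at 37C and 158.7, 157.4 and 169.1 CPM at 41C, so the groups overlapped throughout. The log2 change of JUNB was -0.02 ± 0.05 SE (edgeR adjusted p = 0.935), and its sign turned with the length correction and without 37C replicate 2 or 41C replicate 2. HOOK2, on the opposite strand, shares 259 of the 1820 exonic bases of JUNB (14.2%) in GENCODE 29, and whether reads were counted by strand is not known here. HOOK2 itself had 0.985 times its 37C level (edgeR adjusted p = 0.911). JUND, a subunit that is made more steadily than the others of its group, had 72.6, 85.7 and 86.9 CPM at 37C and 74.8, 82.2 and 81.7 CPM at 41C. Replicate 1 was the lowest library of JUND in both groups, and the groups overlapped (log2 change -0.04 ± 0.07 SE, edgeR adjusted p = 0.863).

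As a share of the summed FPKM of JUN, JUNB and JUND, JUN made up 9.58, 7.28 and 8.75% at 37C and 10.8, 10.7 and 10.4% at 41C. The groups did not overlap in this share, which does not depend on scaling between libraries, and JUNB stayed between 59.7 and 62.8% in every library. Set against JUNB alone, the level of JUN per length was 13.8 ± 1.94% at 37C and 17.5 ± 0.538% at 41C (SD, n = 3). The summed FPKM of the 3 JUN-group genes was 144.8 ± 7.41 at 37C and 144.0 ± 3.86 at 41C, and these overlapped. These sums and shares are descriptions without a test.

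FOSB encodes a FOS protein of the immediate-early type and had the fewest counts of the subunits. Its raw counts were 79, 88 and 84 in the 37C libraries, against 109, 123 and 128 after heating. In CPM these were 3.97, 4.45 and 4.25 at 37C and 5.23, 5.97 and 6.45 at 41C, every library at 41C lying above every one at 37C. The log2 change was 0.48 ± 0.15 SE and did not pass over all genes (edgeR adjusted p = 0.154). It missed the threshold in all 17 alternatives with an adjusted p, with values from 0.0857 with the GC correction to 0.436 with DESeq2 without its filter. The FOSB locus lies wholly inside the bounds of ERCC1 on the opposite strand, with 0 shared exonic bases, and ERCC1 had 0.978 times its 37C level (edgeR adjusted p = 0.886).

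FOS, the first of its group to be described and a standard mark of recent stimulation, had 7.93, 9.06 and 8.81 CPM at 37C and 8.59, 9.03 and 7.203 CPM at 41C. The groups overlapped, and the lowest library was 41C replicate 3. Its log2 change was -0.05 ± 0.12 SE (edgeR adjusted p = 0.896), and 0.03 with 41C replicate 3 left out, so its sign was not settled. Neither FOS nor FOSB passed.

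FOSL1 encodes a FOS relative that lacks the strong activating part of FOS and is known from migrating and wounded keratinocytes. It had 49.0, 36.3 and 49.9 CPM at 37C and 52.4, 48.0 and 56.2 CPM at 41C. 37C replicate 2 was far below the other 5 libraries, the same library in which JUN was lowest. The log2 change of FOSL1 was 0.21 ± 0.12 SE (edgeR adjusted p = 0.492), and 0.07 without 37C replicate 2 (edgeR adjusted p = 0.832). Variation between libraries at 37C was widest for FOSL1, at 16.9% of its mean, and narrowest for FOSL2, at 1.4%.

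FOSL2 encodes the other FOS relative of this kind. Its CPM were 130.7, 133.9 and 133.9 at 37C and 136.3, 142.2 and 141.6 at 41C, without overlap of the groups, and the log2 change was 0.08 ± 0.05 SE (edgeR adjusted p = 0.4998). The summed FPKM of the 4 FOS-group genes was 49.1, 42.3 and 49.9 at 37C and 51.7, 50.004 and 53.5 at 41C. All 41C sums lay above the 37C ones, with 37C replicate 3 just under 41C replicate 2. FOSL1 supplied 56.3 ± 4.85% of the sum at 37C and 58.8 ± 2.43% at 41C, and 37C replicate 2 was lowest in FOSL1 and in the sum.

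**Figure D4:**
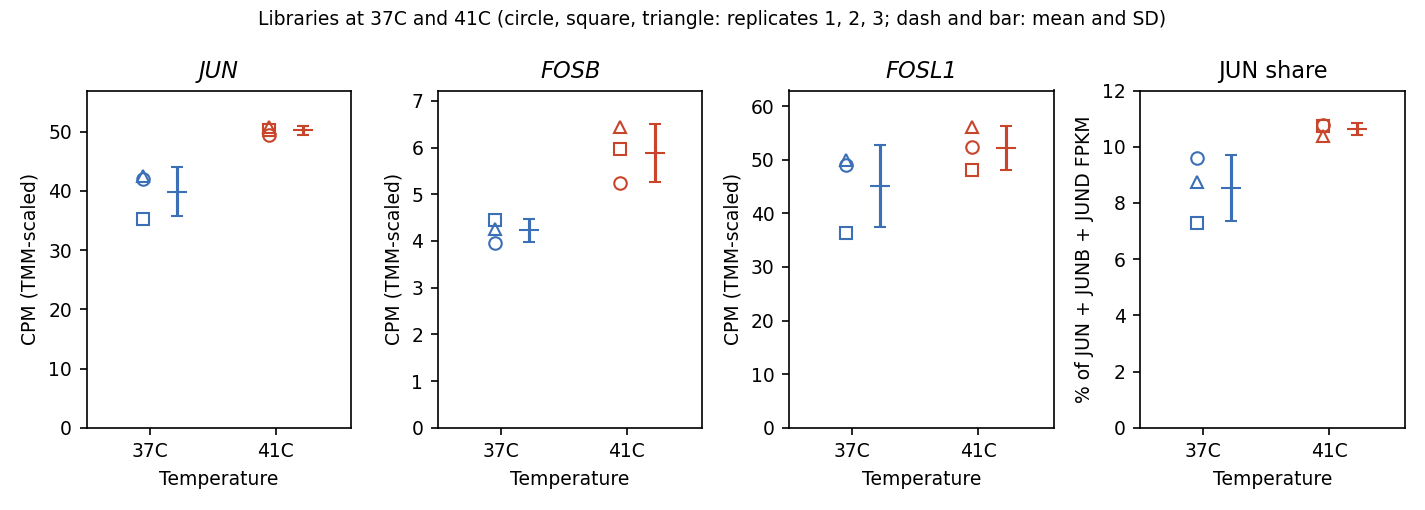
CPM of JUN, FOSB and FOSL1, and JUN as a percentage of the summed FPKM of JUN, JUNB and JUND, in each library at 37C (blue) and 41C (red); symbols give the replicate, dash and bar the mean and SD of 3. The 41C libraries lie above the 37C ones for JUN, FOSB and the share of JUN, while those of FOSL1 overlap and 37C replicate 2 is low.

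ATF2 encodes a factor that is present before stimulation and is switched on by phosphorylation through the stress kinases JNK and p38. It had 48.8, 52.1 and 41.2 CPM at 37C and 48.5, 50.6 and 46.4 CPM at 41C, with overlapping groups and 37C replicate 3 lowest. Its log2 change was 0.03 ± 0.08 SE (edgeR adjusted p = 0.896), and -0.05 without 37C replicate 3. ATF3, a stress-induced factor that often represses its targets, had 16.5, 15.3 and 15.4 CPM at 37C and 14.4, 16.1 and 17.2 CPM at 41C. The groups of ATF3 overlapped and its log2 change was 0.01 ± 0.10 SE (edgeR adjusted p = 0.973), with a negative sign under upper-quartile scaling and in both FPKM fits, and without 37C replicate 2 or 41C replicate 3. Per length, ATF3 made up 35.2 ± 2.74% of the summed FPKM of ATF2 and ATF3 at 37C and 34.7 ± 2.57% at 41C.

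Other factors with a basic region and leucine zipper, including partners and competitors of AP-1, showed 0 calls among 13 tested of 18 listed by edgeR, beside 1.09% of all tested genes. DESeq2, fitted to all 18, gave 0 calls with its own filter on low counts and 0 without it. An unadjusted edgeR p under 0.05 was found for 4 of the 13, beside 13.7% of all tested genes. JDP2, which pairs with JUN and usually represses, had 63.5, 61.8 and 63.8 CPM at 37C and 68.7, 71.3 and 76.3 CPM at 41C (log2 change 0.19 ± 0.06 SE, edgeR adjusted p = 0.126). For MAFF, a small MAF factor, the log2 change was 0.30 (edgeR adjusted p = 0.173). DDIT3, which encodes the stress factor CHOP, had one of -0.26 (edgeR adjusted p = 0.190). NFE2L1, a factor of proteasome genes, had one of 0.11 (edgeR adjusted p = 0.302). The JDP2 and MAFF libraries at 41C were all above those at 37C, and those of DDIT3 all below. Groups lay apart in either direction in 4 of the 13, beside 20% of all tested genes. Genes named for a small p are likely to show this.

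Among 18 kinases and ubiquitin ligases that act on JUN or FOS proteins, 0 passed by edgeR, beside 1.09% of all tested genes. DESeq2 gave 0 calls among them, with or without its own filter. Of the 18, 1 had an unadjusted edgeR p under 0.05, beside 13.7% of all tested genes. That gene was GSK3B, a kinase that marks JUN for removal, with 149.1, 148.5 and 146.6 CPM at 37C and 160.5, 162.2 and 159.0 CPM at 41C (log2 change 0.12 ± 0.04 SE, edgeR adjusted p = 0.254). The stress kinase gene MAPK14 and the ligase component gene FBXW7 did not pass either; their log2 changes were 0.09 and 0.18, with edgeR adjusted p = 0.491 and 0.559. The value of FBXW7 was 0.083 when 41C replicate 1 was left out, 0.099 with 37C replicate 2 left out, 0.28 with 41C replicate 3 left out and 0.29 with 37C replicate 1 left out. All 18 had log2 changes between -0.08 and 0.18. Phosphorylation, by which these kinases act, is not measured by RNA counts.

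Of 12 factors that act at the FOS or JUN promoters, 0 passed by edgeR, beside 1.09% of all tested genes. DESeq2 called 0 of them, with or without its own filter. Of the 12, 3 had an unadjusted edgeR p under 0.05, beside 13.7% of all tested genes. A positive log2 change was found for 11, beside 50.9% of all tested genes. That 11 became 8 with the length correction and 7 with 37C replicate 3 left out. MRTFA, an actin-regulated partner of serum response factor, had 61.9, 64.9 and 59.2 CPM at 37C and 67.1, 70.8 and 72.5 CPM at 41C (log2 change 0.18 ± 0.06 SE, edgeR adjusted p = 0.175). For SRF, serum response factor itself, the log2 change was 0.12 (edgeR adjusted p = 0.333), and the JUN promoter factor MEF2D one of 0.14 (edgeR adjusted p = 0.341). STAT3, a cytokine-activated factor, had one of 0.06 (edgeR adjusted p = 0.602). In MRTFA, SRF and MEF2D every library at 41C lay above those at 37C. This order held for 3 of the 12, beside 11.2% of all tested genes. The 3 genes were named for their small p, which favours groups that lie apart.

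Immediate-early genes that are commonly switched on together with FOS and JUN gave 0 calls among 14 tested of 17 listed by edgeR, beside 1.09% of all tested genes, and 3 of the 14 had an unadjusted p under 0.05, beside 13.7%. DESeq2 gave 1 call, CCN1 (adjusted p = 0.0235), which ended without its independent filtering (adjusted p = 0.0811). CCN1, which encodes a secreted matrix-bound protein, had 178.6, 150.4 and 186.5 CPM at 37C and 195.2, 208.5 and 204.7 CPM at 41C (log2 change 0.24 ± 0.07 SE, edgeR adjusted p = 0.154). 37C replicate 2 was the lowest library of CCN1, as it was of JUN and FOSL1. The log2 change of CCN1 was 0.15 with that library left out (edgeR adjusted p = 0.451), and 0.30 with 37C replicate 3 left out, where it passed (edgeR adjusted p = 0.00166). For EGR1, a zinc finger factor that follows growth factor signals, it was 0.20 (edgeR adjusted p = 0.330). MYC, a growth regulator, gave 0.11 (edgeR adjusted p = 0.325), and KLF10, a TGF-beta response factor, gave 0.12 (edgeR adjusted p = 0.468).

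Of 33 genes listed as targets of AP-1 in keratinocytes, 25 were tested, and 5 rose and 1 fell, beside 0.821% and 0.265% of all tested genes. The list was chosen with earlier results of these data known, so these counts are a description. They do not show that AP-1 targets rose or fell more often than other genes. The list holds matrix and adhesion genes, proteases, cytokines and cornified layer genes, which did not move one way: 14 of the 25 log2 changes were positive and the median was 0.07. CD44, the receptor for hyaluronan, had 924.6, 891.3 and 947.8 CPM at 37C and 1068.5, 1079 and 1071.9 CPM at 41C (log2 change 0.22 ± 0.04 SE, edgeR adjusted p = 0.0156). The groups of CD44 did not overlap. The laminin chain gene LAMA3 and the growth factor receptor gene EGFR also rose; the log2 change was 0.37 for LAMA3 and 0.28 for EGFR, with edgeR adjusted p = 0.00170 and 0.00596. Of 8 keratinocyte markers, 3 rose as well (KRT14, LAMB3 and ITGB4), and their part in these counts was not tested.

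The target that fell was S100A9, which encodes a calcium-binding alarm protein of stressed epidermis. It had 14.6, 21.96 and 15.3 CPM at 37C and 7.49, 10.1 and 8.87 CPM at 41C (log2 change -0.97 ± 0.17 SE, edgeR adjusted p = 0.0344). The call ended when 41C replicate 1, 2 or 3 was left out (edgeR adjusted p = 0.158, 0.0997 and 0.157), with the length correction (edgeR adjusted p = 0.0525) and with limma on log2(FPKM + 1) (adjusted p = 0.0535). DESeq2 with its own filter gave S100A9 no adjusted p, and without that filter S100A9 passed (adjusted p = 7.1e-06). Its partner S100A8 and the collagenase genes MMP1 and MMP13 did not pass in the reported fit. All are classical AP-1 targets and were named after their values were seen. Their log2 changes were -0.98, -0.35 and -0.31, with edgeR adjusted p = 0.0616, 0.324 and 0.229. S100A8 passed in edgeR with no filter on low counts (adjusted p = 0.0349). The count of targets that fell was 1 in the reported fit. It was 2 with the replicate block, the GC correction or log2(FPKM + 0.1), and 4 with 37C replicate 3 left out. Which targets made up these counts is not given here. Targets with higher and with lower counts at 41C therefore stood side by side, and whether JUN acted on any of them was not tested. Leaving out 37C replicate 3 gave 12 calls in place of 6, and leaving out 37C replicate 2 or 41C replicate 1 gave 3. Leaving out 41C replicate 2 gave 0 calls, and log2(FPKM + 1) gave 1. With log2(FPKM + 1) that 1 call was of a falling target other than S100A9, and 0 targets were called higher. The calls of CD44 and EGFR also ended with 37C replicate 2 left out (edgeR adjusted p = 0.231 and 0.122) or with 41C replicate 1 left out (edgeR adjusted p = 0.0994 and 0.0623), and that of CD44 with 41C replicate 3 left out (edgeR adjusted p = 0.0653).

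**Figure D5:**
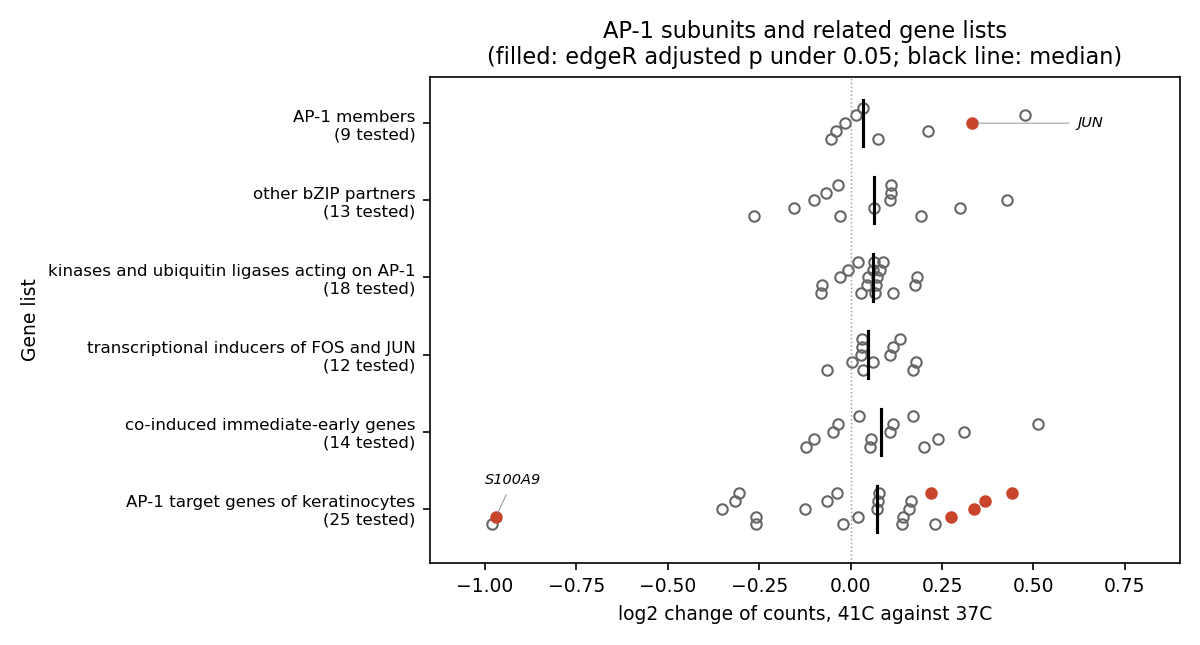
Log2 change at 41C against 37C (horizontal axis) of every tested gene in the AP-1 subunits and in 5 lists of related genes; filled points have an edgeR adjusted p under 0.05 and black lines are medians. JUN is the filled point among the 9 subunits, the 4 middle lists hold 0 filled points, and the targets hold 5 at the right and S100A9 at the left.

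Totals ran from 19659112 to 20856144 counts per library. Over all genes 131 of 12056 passed, 99 higher and 32 lower at 41C, against 57 and 53 with upper-quartile scaling, and 13.7% had an unadjusted p under 0.05. All 8 keratinocyte markers were present, with summed levels of 3048 to 3353 FPKM at 37C and 3495 to 3631 FPKM at 41C. Summed over the listed markers of each other cell type, FPKM ran from 1.35 to 1.56 at 37C and 1.28 to 1.88 at 41C for melanocytes, from 2.49 to 2.95 and 2.78 to 3.21 for fibroblasts, from 4.81 to 6.92 and 4.21 to 5.20 for endothelium, and from 8.14 to 10.4 and 7.94 to 9.77 for immune cells. The immune sum was nearly all CD68, a lysosomal gene, while PTPRC, the defining marker of blood cells, had 1 count at 37C and 2 at 41C over 3 libraries each.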

How the data were processed

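Messenger RNA libraries were made with a TruSeq stranded kit, per the labels' protocols. The submitters' processing notes name Trimmomatic 0.36, HISAT2 and GRCh38.p13. Which counter, gene models and strand option were used is not given here. The deposited counts are whole numbers per gene symbol, not normalized. The deposited FPKM were made by the authors and carry 1 length per gene. Genes were kept with filterByExpr (12056 of 15379), scaled by TMM and tested with edgeR 4.0.16 in R 4.3.3 (robust quasi-likelihood F-test, two-sided, all 6 libraries), with Benjamini-Hochberg adjustment over all genes tested. CPM are TMM-scaled; the procedure was tested on simulated data.

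Alternatives were DESeq2 1.42.0, other scalings and filters, a replicate block, a correction for each library's trend on gene length, limma 3.58.1 on log2(FPKM + 1) or log2(FPKM + 0.1), and each library left out. The GC correction (98% of tested genes had a value) and DESeq2 without independent filtering were chosen after seeing the data. The members and lists were chosen with earlier results of these data known. Named genes were all members, up to 4 genes per list with the smallest p and every list gene past the threshold. The labels do not say whether replicate numbers pair the samples, and the reported fit did not pair them. Some genes that the rule names are not reported here by name; the counts include them.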

Additional observations from a re-analysis of the deposited data

How the results depend on the processing

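Over the alternatives, the log2 change of JUN kept its sign, and the call ended in 6 of 17. DESeq2 with its own filter gave JUN no adjusted p (unadjusted p = 0.000164), and without that filter JUN passed (adjusted p = 0.0219). The count of 1 AP-1 subunit past the threshold became 0 with log2(FPKM + 1) and with log2(FPKM + 0.1), and ran from 0 to 1 with each library left out. Over all genes the count of 131 became 253 with DESeq2, 284 with no filter, 250 with the length correction and the replicate block, 388 with the GC correction, 11 with log2(FPKM + 1), 40 with log2(FPKM + 0.1), and 5 to 805 with a library left out. Leaving out a library gave 0 to 1 calls among other zipper factors, 0 to 2 among co-induced immediate-early genes and 0 to 12 among the targets; DESeq2 gave 1 among the immediate-early genes and log2(FPKM + 1) gave 1 among the targets. Near-zero changes turned sign without passing. JUNB was 0.023 with the length correction, alone or with the replicate block, and -0.065 to 0.011 with a library left out. ATF3 was -0.0058 with upper-quartile scaling, -0.0053 with log2(FPKM + 1), -0.0064 with log2(FPKM + 0.1), and -0.046 to 0.080 with a library left out. With a library left out JUND ran from -0.12 to 0.0082, FOS from -0.12 to 0.034 and ATF2 from -0.054 to 0.11. The cause of these changes was not tested. Deviations from the group means correlated at 0.082, -0.0194 and 0.0774 between same-numbered libraries 1, 2 and 3. Other pairs ran from -0.14 to 0.0663, and not every library correlated best with its own number. Whether the numbers mark a pairing is not in the labels, and these small values do not settle it. The replicate block gave 438 calls over all genes; JUN passed with it (adjusted p = 0.0100), and FOSL1 had 0.22 ± 0.07 SE (adjusted p = 0.0831). At 79 to 128 counts per library, FOSB was the least precisely measured subunit.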

Other observations

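Several list genes had too few counts to pass the filter of the reported test, and entered the fits made without it. Some also passed the same filter with a library left out. For example, 14 zipper factors were tested without 37C replicate 1, against 13 in the reported fit. For immediate-early genes these numbers were 15 and 14. Among zipper factors, BATF had 2 counts in 37C replicate 2 and 0 in every other library, and MAFA, a large MAF factor, was counted 7, 4 and 5 times at 37C, then 15, 10 and 7 times at 41C. Among immediate-early genes, counts of EGR3 were 1, 2 and 1 in 37C libraries against 1, 0 and 1 in 41C libraries, and those of NR4A1 were 6, 8 and 13 against 8, 10 and 8. Among targets, the stromelysin gene MMP10 gave 2, 1 and 4 against 10, 3 and 7, and the cornified envelope gene SPRR1A had 0 counts in each library at 37C and 6, 0 and 1 at 41C. These genes were chosen after their counts were seen. Without the filter, edgeR adjusted p for these 6 genes ran from 0.339 for SPRR1A to 0.966 for NR4A1.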
